A study of Mus musculus with 24 samples.

Results

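The 10 genes described here are the core of the NF-kB system and genes that feed back on it: the Rel-family subunits Nfkb1, Nfkb2, Rela and Relb, the inhibitors Nfkbia and Tnfaip3, the ligand Tnf, the ubiquitin ligase Birc3, the kinase Map3k8 and the transcription factor Cebpb. They were taken by symbol from gene-level RNA-seq tables that list 36109 lung genes and 36595 retina genes, and all 10 are listed in both. In the lung all 10 had enough counts to be tested, and in the retina 9 did, Tnf being the exception. Whole lungs and whole retinas of newborn mice were sequenced, 24 mice in all, with 4 groups of 3 mice in each tissue. WT and GSDMD-KO mice were C57/B6 littermates from heterozygous parents, and the knockout is global, carried by both alleles and made with CRISPR/Cas9, which removed 38 bp of exon 5 of Gsdmd, the gene of the pore-forming protein that executes pyroptosis. For the lung, WT-O2 and KO-O2 pups breathed 85% oxygen between postnatal days 1 and 14, WT-RA and KO-RA pups breathed room air (21% oxygen), and tissue was taken on day 15. For the retina, the O2 groups were in 75% oxygen between days 7 and 12 and then in room air, the RA groups stayed in room air, and tissue was taken on day 18. The exposures, their timing and the ages therefore differed between the tissues, and retinas were sampled after the oxygen had ended.

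NF-kB is a family of dimeric transcription factors that are held in the cytoplasm until a receptor for a cytokine or a microbial product activates a kinase complex. In the canonical arm, signals such as TNF lead to loss of the inhibitor encoded by Nfkbia and free dimers of RELA with p50, the product of Nfkb1. In the noncanonical arm, slower signals lead to processing of the Nfkb2 product to p52, which pairs with RELB. Nfkbia, Tnfaip3, Birc3, Nfkb2 and Tnf are themselves target genes, so their transcripts are widely used as readouts of the pathway. The system is known for its part in lung inflammation under oxygen and in the responses of retinal glia and vessels.

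By the GRCm38 annotation, Nfkb1 lies at chr3:135584655-135691547, Nfkb2 at chr19:46304320-46312385, Rela at chr19:5637483-5648130, Relb at chr7:19606217-19629438, Nfkbia at chr12:55489410-55492647, Tnfaip3 at chr10:19000910-19015657, Tnf at chr17:35199381-35202007, Birc3 at chr9:7848699-7873186 and Cebpb at chr2:167688915-167690418. Values are summed over the transcripts of each gene. Nfkb2 overlaps Psd and a noncoding RNA on the other strand, Cebpb overlaps Tmem189 on the other strand and Nfkb1 overlaps the predicted gene Gm43430 on its own strand. Whether the counting used strand is not given in the sources used here, so reads of Nfkb2 and Cebpb may include some of those neighbours. Birc3 has a close paralog, Birc2, whose reads transcript-level assignment may share.

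RefSeq promoter windows (GRCm38.p6, 250 bases before to 50 after a start) were searched for 7 of the 10 genes, 10 windows in all. Nfkb1 and Relb had none, and Map3k8 was left out of the search. The NF-kB consensus motif, searched on both strands, was found in windows of 3 of the 7, and the stretch up to the start is given here for those 3. Nfkb2 and Tnfaip3 passed a test in both tissues, as did Cebpb, whose window held no match, and Nfkbia passed between the genotypes in oxygen-exposed retinas. Nfkb2 has 3 windows, each with a match, and Tnfaip3 has 2, of which the second held 0 matches. The first window is shown for each. Capitals mark the bases of a match on either strand, and overlapping matches run together.
Nfkbia, chr12:55492648-55492707, minus strand: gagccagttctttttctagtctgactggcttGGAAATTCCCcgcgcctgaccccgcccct
Nfkb2, chr19:46304677-46304736, plus strand: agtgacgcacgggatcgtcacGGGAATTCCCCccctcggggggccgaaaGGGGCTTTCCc
Tnfaip3, chr10:19015411-19015540, minus strand: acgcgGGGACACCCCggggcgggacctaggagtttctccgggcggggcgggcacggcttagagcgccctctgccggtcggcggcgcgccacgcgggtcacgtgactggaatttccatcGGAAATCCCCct
Of all 32851 promoter windows 4.51% held such a match, and 3.9% did when only bases before the start were searched. These shares count windows, while the 3 of the 7 counts genes, which can have several windows. In these stretches the match nearest the start begins 29 bases before the RefSeq start in Nfkbia, 11 in Nfkb2 and 12 in Tnfaip3. By the gene positions given above, the stretches of Nfkb2 and Tnfaip3 lie inside the annotated genes, whose ends are further upstream. A match is a description of the letters and not a measured binding site. No match was found in the windows of Cebpb, Birc3, Tnf and Rela, which says only that these letters are not in these windows.

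Lung libraries held 28763661 to 29604254 counts and retina libraries 24863257 to 29093035. Lung epithelial and retinal neuron markers were high in their own tissue, at sums of at least 20049 and 47710 CPM (counts scaled to a common library size). The transcript of the targeted gene, most of which the deletion leaves countable, was lower in GSDMD-KO lungs (24.0 CPM in KO-RA against 41.4 in WT-RA, 13.7 in KO-O2 against 34.5 in WT-O2). In libraries labelled WT the retinal level was 4.08, 0.42 and 2.70 CPM after room air and 5.70, 2.90 and 3.85 after oxygen. In libraries labelled GSDMD-KO it was 0.98, 0.77 and 0.64 after room air and 1.11, 1.44 and 2.95 after oxygen. The library labelled WT-RA replicate 2 thus lay below every GSDMD-KO retina, and the library labelled KO-O2 replicate 3 lay among the WT retinas. Lens transcripts were high in 3 room-air retinas, WT-RA replicates 2 and 3 and KO-RA replicate 3 (sums of 13257, 38171 and 21166 CPM), and at most 175 CPM elsewhere. Y-linked transcripts were present in 0 WT-RA lungs, 1 WT-O2 lung, 2 KO-RA lungs and all 3 KO-O2 lungs. In the retina they were present in all 3 room-air mice of either genotype and in 1 oxygen-exposed mouse of each, so sex was not balanced over the groups.

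The first question was how hyperoxia changed these genes in the WT lung. Nfkb2, Rela, Relb and Tnfaip3 rose 1.57-fold to 1.86-fold in WT-O2 against WT-RA, Cebpb rose 1.30-fold and Nfkb1 fell to 0.66 of its room-air level. With Tnf, 7 of 10 genes passed an adjusted p of 0.1 in edgeR's quasi-likelihood test, 6 higher and 1 lower. Of all 16819 genes tested, 49.2% passed, 24.5% higher and 24.7% lower, so the 7 of 10 are read against a response that took in much of the transcriptome. The median log2 change over the 10 genes was 0.52, against -0.0069 over all genes tested. In bulk tissue, fewer cells of a type and less RNA per cell cannot be told apart.

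**Figure D1:**
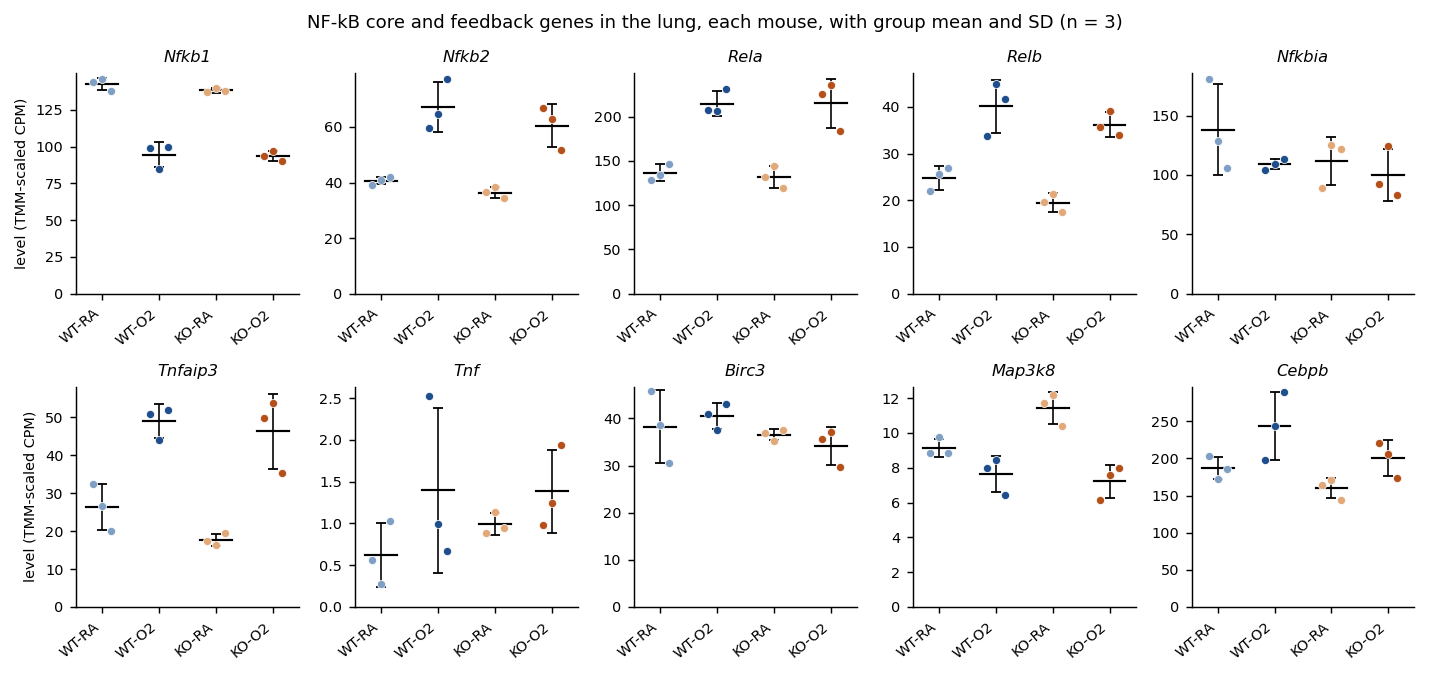
Level of each of the 10 genes in every lung, in CPM scaled by TMM factors (vertical axis, from 0), for the groups WT-RA, WT-O2, KO-RA and KO-O2. Points are mice, the long bar is the mean and the error bar the SD (n = 3). Nfkb2, Rela, Relb and Tnfaip3 are higher and Nfkb1 lower in all oxygen-exposed lungs of either genotype than in the room-air lungs, while Nfkbia and Birc3 overlap.

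Among the Rel-family subunits, Nfkb1, which encodes the p105 precursor of p50, was at 144, 146 and 138 CPM (scaled by TMM factors) in WT-RA and at 99.0, 84.7 and 99.7 in WT-O2. All 3 oxygen-exposed lungs lay below all 3 room-air lungs, and the level fell by 0.59 on the log2 scale (SE 0.075, adjusted p = 2.19e-05). Of all genes tested, 49.8% had groups that did not overlap in this comparison. Nfkb2, which encodes the p100 precursor of p52, was at 39.2, 41.0 and 41.9 CPM in WT-RA and at 59.8, 64.8 and 77.2 in WT-O2. The groups did not overlap, and the difference was 0.72 on the log2 scale (SE 0.11, adjusted p = 9.06e-05). Rela, the main activating subunit of the canonical arm, was at 128, 134 and 147 CPM in WT-RA and at 207, 206 and 231 in WT-O2, a difference of 0.65 (SE 0.10, adjusted p = 0.000173). Relb, the partner of p52, was at 21.9, 25.7 and 26.9 CPM in WT-RA and at 33.8, 44.8 and 41.7 in WT-O2, a difference of 0.69 (SE 0.12, adjusted p = 0.000312). The pair of precursor genes thus moved in opposite directions, and both Rel activators rose.

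The inhibitors did not move together. Tnfaip3, whose product A20 removes the ubiquitin chains that carry the signal, was at 32.4, 26.5 and 20.2 CPM in WT-RA and at 51.0, 43.9 and 52.1 in WT-O2. Every oxygen-exposed lung lay above every room-air lung, a difference of 0.89 on the log2 scale (SE 0.17, adjusted p = 0.00118). Nfkbia, which encodes the inhibitor IkB-alpha, was at 181, 128 and 105.5 CPM in WT-RA and at 104.5, 109.6 and 113 in WT-O2. The room-air lungs spread over a wider range than the oxygen-exposed lungs and the groups overlapped, so the log2 difference of -0.34 (SE 0.20, adjusted p = 0.207) did not pass. Without WT-RA replicate 3 it was -0.50 with an adjusted p of 0.068. That replicate also set the sign for Birc3, whose log2 difference was 0.08 (SE 0.13, adjusted p = 0.642) and -0.055 without it.

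Tnf, the ligand that starts the canonical arm, was low, at 0.56, 0.27 and 1.03 CPM in WT-RA and at 2.52, 0.998 and 0.68 in WT-O2, which are 8 to 74 counts in a library. The groups overlapped, and 1 oxygen-exposed lung stood far above the other 5. The log2 difference of 1.17 (SE 0.51, adjusted p = 0.081) was the only one of the 10 that also exceeded a fold change of 2, a call that 11.6% of all genes met. Without WT-O2 replicate 1 it was 0.43 with an adjusted p of 0.515, and without WT-RA replicate 1 or 2 the adjusted p was 0.176 or 0.246. Cebpb, a transcription factor of acute-phase and myeloid genes, was at 203, 172 and 186 CPM in WT-RA and at 198, 244 and 289 in WT-O2. These overlapped, with a log2 difference of 0.38 (SE 0.13, adjusted p = 0.0276), which was 0.24 (adjusted p = 0.148) without WT-O2 replicate 3. Map3k8 (chr18:4331327-4353015), the kinase TPL2 that p105 holds, had a log2 difference of -0.26 (SE 0.14, adjusted p = 0.138).

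In GSDMD-KO lungs the same question gave 7 of 10 genes past the test, 5 higher and 2 lower, where 46.7% of all genes passed, 23.3% higher and 23.4% lower. The median log2 change over the 10 genes was 0.41, against -0.013 over all genes. Nfkb2 rose by 0.73 (SE 0.11, adjusted p = 9.42e-05), Rela by 0.70 (SE 0.10, adjusted p = 0.000107), Relb by 0.89 (SE 0.12, adjusted p = 4.17e-05) and Cebpb by 0.33 (SE 0.13, adjusted p = 0.0579) on the log2 scale. Nfkb1 went from 137, 140 and 137.5 CPM in KO-RA to 93.4, 96.9 and 90.2 in KO-O2, so that it fell by 0.56 (SE 0.075, adjusted p = 4.04e-05). The Cebpb result was lost without KO-O2 replicate 1 (adjusted p = 0.204), KO-O2 replicate 2 (0.13) or KO-RA replicate 3 (0.189), and with a term for sex (0.146).

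Tnfaip3 gave the largest difference of the 10 genes in the GSDMD-KO lung. Its level was 17.4, 16.2 and 19.4 CPM in KO-RA and 49.8, 53.9 and 35.2 in KO-O2, a log2 difference of 1.39 (SE 0.18, adjusted p = 4.95e-05). It was the only one of the 10 to exceed a fold change of 2, which 10.6% of all genes did. Map3k8 was at 11.7, 12.2 and 10.4 CPM in KO-RA and at 6.16, 7.58 and 7.96 in KO-O2, so that all oxygen-exposed lungs were lower, and it fell by 0.66 (SE 0.14, adjusted p = 0.00156). Nfkbia (log2 difference -0.17, SE 0.20), Tnf (0.48, SE 0.49) and Birc3 (-0.096, SE 0.13) did not pass.

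Genotype was then compared at each exposure, and none of the 10 genes passed in edgeR. In KO-O2 against WT-O2 lungs 0 of 10 passed, against 0.0416% of all genes. In DESeq2 0 passed, against 0.438%, and 1 was at an unadjusted p under 0.05 in edgeR, against 6.21%. In KO-RA against WT-RA lungs 0 of 10 passed, against 0.488% of all genes. Here DESeq2 passed 1, against 2.54%, and 3 were at an unadjusted p under 0.05, against 10.5%. For the interaction of genotype and hyperoxia 0 of 10 passed, against 0.00595% of all genes, with 0 in DESeq2 (Tnf without an adjusted p), against 0.776%, and 0 at an unadjusted p under 0.05, against 6.72%. The 3 room-air differences at an unadjusted p under 0.05 were in Tnfaip3 (log2 difference -0.58, SE 0.18, adjusted p = 0.239), Relb (-0.35, SE 0.12, adjusted p = 0.292) and Map3k8 (0.32, SE 0.14, adjusted p = 0.424). For Tnfaip3 the 3 KO-RA lungs, at 16.2 to 19.4 CPM, lay just below the lowest WT-RA lung, at 20.2 CPM. Its adjusted p was 0.0673 in DESeq2 and 0.0336 without WT-RA replicate 3. It was 0.276 with 2 groups only, 0.534 with a term for sex and 0.536 without WT-RA replicate 2. In oxygen KO-O2 and WT-O2 lungs were at 46.3 ± 9.83 and 49.0 ± 4.42 CPM of Tnfaip3 (SD, n = 3), and the interaction had a log2 value of 0.49 (SE 0.25, adjusted p = 0.771).

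Several sets of cell-type markers also moved with oxygen in the lung, where 49.2% of all genes passed in WT and 46.7% in GSDMD-KO. The counts of epithelial and endothelial markers passing in GSDMD-KO were near that share. Of 8 tested neutrophil markers 1 was higher in WT-O2 and 2 were lower in KO-O2, below the share of all genes in both genotypes. The neutrophil sum was 58.4 to 119.8 CPM in room air, highest in KO-RA replicate 1, and 54.8 to 72.8 in oxygen. Of 10 lymphocyte markers, 9 were lower in WT-O2, and 7 were lower and 1 higher in KO-O2, and their summed level was 144 to 251 CPM in room air and 54.4 to 65.4 in oxygen. Of 10 macrophage and monocyte markers, 7 were higher and 1 lower in WT-O2 and 8 higher and 1 lower in KO-O2, while their sum, of which Lyz2 was the larger part, was 2193 to 3139 CPM in room air and 1615 to 2055 in oxygen. Of 8 lung epithelial markers 1 was higher and 5 were lower in WT-O2 and 4 were lower in KO-O2, with a sum of at least 30967 CPM in room air and at most 26331 in oxygen. Of 8 endothelial markers 1 was higher and 4 were lower in WT-O2 and 1 was higher and 3 were lower in KO-O2, with a sum of 3747 to 4425 CPM in room air and 2972 to 3541 in oxygen. Of 7 erythroid markers all 7 were lower in WT-O2 and 1 in KO-O2. Their sum was 12980 to 27267 CPM in room air and 2913 to 4127 in WT-O2. In KO-O2 replicates 1, 2 and 3 it was 25655, 28556 and 6092 CPM. Replicate 1 thus lay in the room-air range and replicate 2 above it, while replicate 3 lay between that range and WT-O2. Liver markers summed to 171 CPM in KO-O2 replicate 1 and to 2.90 and 1.98 in replicates 2 and 3. All 3 tested liver markers passed as higher in KO-O2. None of these genes was at 0 in every lung. Their part in the changes of the NF-kB genes was not tested.

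The rest of the pathway was read from 8 lists of genes that hold 113 genes besides the 10, of which 108 were tested in the lung. In WT-O2 against WT-RA lungs 62 passed, 42 higher and 20 lower (57.4%), with a median log2 change of 0.12, and in KO-O2 against KO-RA lungs 67 passed, 48 higher and 19 lower (62.0%), with a median of 0.24. Of textbook NF-kB targets, 19 of 28 were higher and 3 lower in WT, and 18 were higher and 3 lower in GSDMD-KO, at medians of 0.70 and 0.74. These counts and those of the lists that follow stand beside 49.2% of all genes passing in WT (24.5% higher, 24.7% lower) and 46.7% in GSDMD-KO, and for several lists the share was near or below that background. Ccl2, a monocyte chemoattractant, went from 0.79 to 15.5 CPM in WT (log2 difference 4.29, SE 0.23, adjusted p = 7.48e-09) and from 0.44 to 12.6 in GSDMD-KO. Saa3, an acute-phase protein, went from 3.27 to 38.4 CPM in WT (log2 difference 3.55, adjusted p = 3.4e-08), and Plau, the urokinase, from 5.19 to 25.9 CPM (2.32, adjusted p = 8.2e-08). These 3 differences were each larger than any among the 10 genes in the WT lung.

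Upstream of the core, 10 of 22 receptors and adaptors rose and 5 fell in the WT lung. Tnfrsf12a, the TWEAK receptor, went from 14.98 to 75.9 CPM (log2 difference 2.34, SE 0.20, adjusted p = 1.96e-06), Il1r1, the interleukin-1 receptor, from 47.0 to 89.9 (0.94, adjusted p = 8.36e-07), and Tnfrsf13c, the BAFF receptor of B cells, from 8.46 to 2.57 (-1.72, adjusted p = 2.11e-05). Of 11 kinases and their regulators, 2 rose and 1 fell, namely Tank (0.40, adjusted p = 0.00394), Map3k7, which encodes TAK1 (0.28, adjusted p = 0.00424), and Ikbkb, the canonical IkB kinase (-0.31, adjusted p = 0.0012). Among 10 tested TNF-superfamily and interleukin-1 ligands, 1 rose and 3 fell. These included Tnfsf13b, which encodes BAFF, at 1.37 (adjusted p = 0.000186), Tnfsf10, which encodes TRAIL, at -1.75 (adjusted p = 2.91e-06) and Ltb at -1.64 (adjusted p = 3.44e-06).

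Of 7 other Rel and IkB family genes, 2 rose and 2 fell. Bcl3, the nuclear IkB that binds p50 and p52, went from 23.7 to 42.4 CPM (log2 difference 0.84, SE 0.12, adjusted p = 5.11e-05), Nfkbie rose by 0.65 (adjusted p = 0.00184) and Nfkbid fell by 0.84 (adjusted p = 0.00359). Of 13 other inhibitors and regulators of the pathway, 4 rose and 2 fell, among them Tnip1, the A20 adaptor, at 0.54 (adjusted p = 0.000605), Zc3h12a, the RNase Regnase-1, at 0.67 (adjusted p = 0.00112) and Tnip2 at 0.41 (adjusted p = 0.00516). In GSDMD-KO lungs Tnip2 was at 18.3 CPM in room air and 18.7 in oxygen (log2 difference 0.031, adjusted p = 0.834). Its interaction of genotype and hyperoxia did not pass (-0.38, SE 0.14, adjusted p = 0.656). Of 6 other C/EBP genes 1 rose and 2 fell, and of 14 tested IAP genes and MAP3K8 partners 3 rose and 4 fell, with a log2 difference of 0.76 for Ddit3, -0.46 for Cebpg, -0.57 for Naip5 and 0.41 for Map2k2. The symbol Ddit3 was listed under 2 gene entries, and its value is that of 1 of them. Cebpe, a granulocyte factor, was below 0.5 CPM on average and fell by 1.72 (adjusted p = 0.0621). In the genotype comparisons of the lung 2 of the 108 genes passed, both lower in KO-RA against WT-RA, namely Tnfrsf1b (log2 difference -0.42, adjusted p = 0.0639) and Saa3 (-1.199, adjusted p = 0.0856), where 0.488% of all genes passed, and 0 passed in KO-O2 against WT-O2, where 0.0416% did. Textbook targets had a median log2 difference of -0.37 in KO-RA against WT-RA, -0.031 in KO-O2 against WT-O2 and 0.25 for the interaction. Over all genes these medians were -0.00055, -0.00058 and 0.0025. The shifts of the list were not tested.

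In the WT retina 3 of the 9 genes tested rose with hyperoxia, and 6, among them Nfkb1, Rela and Relb, did not pass. Birc3 rose 3.34-fold, Nfkb2 2.16-fold and Cebpb 1.69-fold in WT-O2 against WT-RA, and none of the 9 passed as lower. Of all 19173 genes tested 5.16% passed, 3.11% higher and 2.05% lower. Birc3 and Nfkb2 also met a fold change of 2, as 2.04% of all genes did. The median log2 change over the 9 genes was 0.39, against 0.00092 over all genes.

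**Figure D2:**
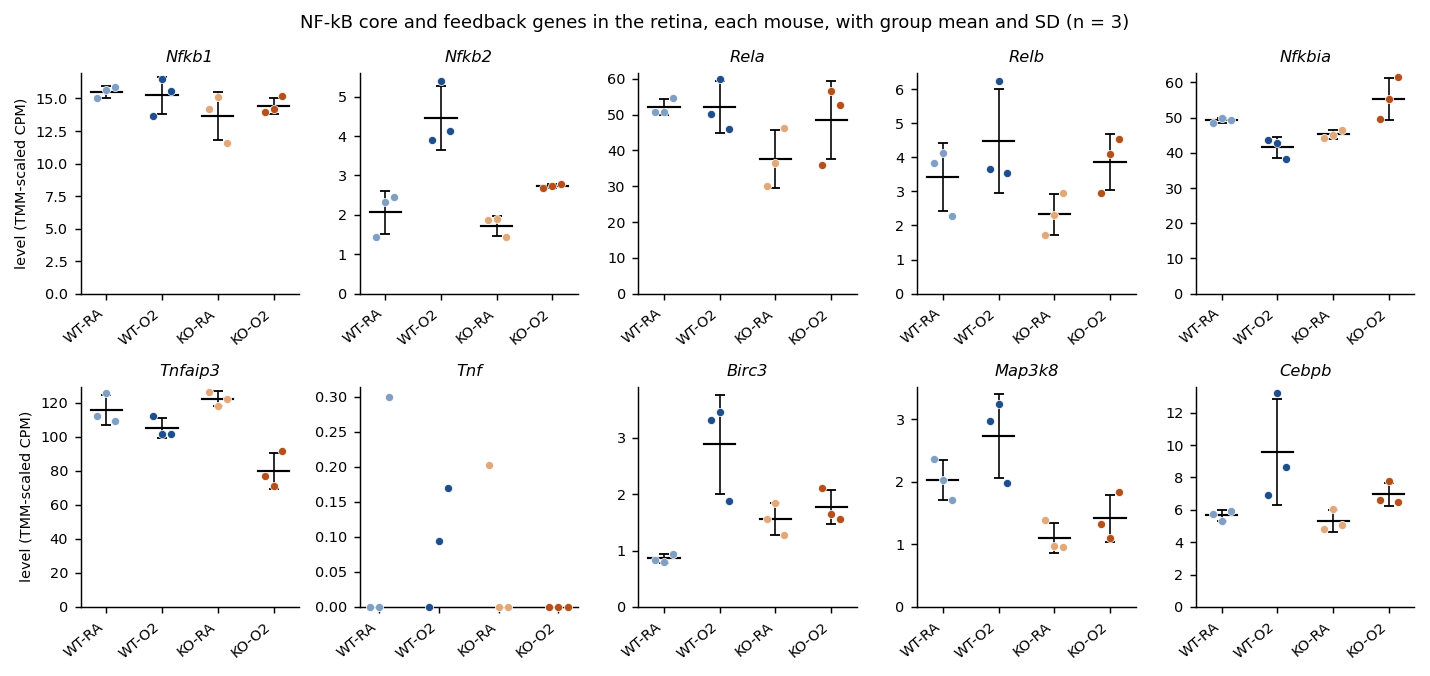
Level of each of the 10 genes in every retina, in CPM scaled by TMM factors (vertical axis, from 0), by group. Points are mice, the long bar is the mean and the error bar the SD (n = 3), and for Tnf only the points are drawn since it was listed at 0 in most libraries. By group mean Birc3 and Nfkb2 are highest in WT-O2, Tnfaip3 is lowest in KO-O2, and Nfkbia is lowest in WT-O2 and highest in KO-O2.

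Birc3, the ubiquitin ligase cIAP2 of the TNF receptor complex, was at 0.84, 0.80 and 0.94 CPM in WT-RA and at 3.31, 3.46 and 1.87 in WT-O2. The groups did not overlap, and the log2 difference was 1.74 (SE 0.30, adjusted p = 0.0144). Nfkb2 was at 1.44, 2.33 and 2.44 CPM in WT-RA and at 3.89, 5.40 and 4.12 in WT-O2. Again every oxygen-exposed retina was above every room-air retina, with a log2 difference of 1.11 (SE 0.25, adjusted p = 0.0392). Cebpb was at 5.72, 5.30 and 5.95 CPM in WT-RA and at 6.89, 13.2 and 8.65 in WT-O2, a log2 difference of 0.76 (SE 0.22, adjusted p = 0.0937). These levels of a few CPM carry a visible counting error.

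Those 3 results depended on the libraries in the fit. Without the 3 lens-rich retinas the log2 difference of Birc3 was 1.77 (adjusted p = 0.118), that of Nfkb2 1.63 (adjusted p = 0.0581) and that of Cebpb 0.74 (adjusted p = 0.32), which left 1 gene past the test. Nfkb2 was lost without WT-O2 replicate 2 (0.95, adjusted p = 0.157) or WT-RA replicate 1 (0.91, adjusted p = 0.119), and with a term for sex (1.01, adjusted p = 0.19). Cebpb was lost without any 1 of 11 of the 12 retinas, the exception being WT-O2 replicate 1, and its log2 difference was 0.46 (adjusted p = 0.304) without WT-O2 replicate 2. Without the library labelled WT-RA replicate 2, whose Gsdmd level goes against its label, Birc3 (1.69, adjusted p = 0.0675) and Nfkb2 (1.202, adjusted p = 0.0998) still passed.

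The other genes of the WT retina did not pass. Nfkb1 was at 15.5 ± 0.44 CPM in WT-RA and 15.2 ± 1.46 in WT-O2, and Rela at 52.1 ± 2.20 and 52.0 ± 7.27 (SD, n = 3), with log2 differences of -0.025 (SE 0.12) and -0.0028 (SE 0.18). Relb was at 3.41 ± 1.00 and 4.48 ± 1.53 CPM (log2 difference 0.39, SE 0.32, adjusted p = 0.579), and Map3k8 at 2.03 ± 0.32 and 2.73 ± 0.67 CPM (0.42, SE 0.30, adjusted p = 0.512). Tnfaip3 was at 112, 126 and 109 CPM in WT-RA and at 112, 102 and 102 in WT-O2 (log2 difference -0.14, SE 0.10, adjusted p = 0.537). Tnf was listed at 0 in 8 of the 12 retinas, and the others held 7.34 counts in WT-RA replicate 3, 2.88 and 5.37 in WT-O2 replicates 2 and 3 and 5.99 in KO-RA replicate 1.

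In GSDMD-KO retinas 1 of the 9 genes passed, and it fell, where 7.82% of all genes passed, 4.38% higher and 3.44% lower. None of the 9 met a fold change of 2, as 2.19% of all genes did, and their median log2 change was 0.35, against 0.00074 over all genes. That gene was Tnfaip3, at 126.5, 118 and 122 CPM in KO-RA and at 77.0, 71.1 and 91.8 in KO-O2. All KO-O2 retinas lay below all other retinas, and the level fell by 0.61 on the log2 scale (SE 0.10, adjusted p = 0.0114), with an adjusted p of 0.0585 or less under every alternative run. Nfkb2 was at 1.86, 1.88 and 1.43 CPM in KO-RA and at 2.67, 2.74 and 2.78 in KO-O2 (0.66, SE 0.25, adjusted p = 0.16). Birc3 was at 1.56, 1.85 and 1.27 CPM in KO-RA and at 2.12, 1.64 and 1.56 in KO-O2 (0.18, SE 0.29, adjusted p = 0.784). Relb (0.73, SE 0.32), Rela (0.37, SE 0.18), Cebpb (0.39, SE 0.22), Map3k8 (0.35, SE 0.30) and Nfkb1 (0.079, SE 0.12) had positive differences that did not pass.

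The groups of Nfkbia were ordered in opposite ways in the 2 genotypes of the retina. It was at 48.6, 49.8 and 49.3 CPM in WT-RA and at 43.6, 42.9 and 38.2 in WT-O2, so that all oxygen-exposed WT retinas were lower (log2 difference -0.25, SE 0.091, adjusted p = 0.189). It was at 44.2, 44.97 and 46.6 CPM in KO-RA and at 49.5, 55.2 and 61.4 in KO-O2, so that all oxygen-exposed GSDMD-KO retinas were higher (0.29, SE 0.091, adjusted p = 0.102). Neither difference passed, but that in GSDMD-KO had an adjusted p of 0.0465 without KO-O2 replicate 1, 0.0925 under a stricter filter on low counts and 0.0328 in DESeq2. It was 0.283 without the library labelled KO-O2 replicate 3, 0.202 with 2 groups only, 0.185 with a term for sex and 0.219 without the lens-rich retinas. The test of the difference between the genotypes, the interaction, gave 0.54 on the log2 scale (SE 0.13, adjusted p = 0.213), and an adjusted p of 0.0126 in DESeq2.

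Compared directly, KO-O2 retinas had more Nfkbia than WT-O2 retinas (55.4 ± 5.96 against 41.5 ± 2.92 CPM, SD, n = 3; log2 difference 0.42, SE 0.091, adjusted p = 0.0902). It was the only one of the 9 to pass in that comparison, against 1.27% of all genes, and 5 were at an unadjusted p under 0.05, against 12.6%. Its adjusted p was above 0.1 without any 1 of 10 of the 12 retinas, the exceptions being KO-O2 replicate 1 and WT-RA replicate 1, and was 0.27 without the library labelled KO-O2 replicate 3. The others were lower in KO-O2, with log2 differences of -0.71 for Nfkb2 (SE 0.24, adjusted p = 0.243), -0.39 for Tnfaip3 (SE 0.10, adjusted p = 0.128), -0.70 for Birc3 (SE 0.29, adjusted p = 0.344) and -0.94 for Map3k8 (SE 0.30, adjusted p = 0.212). In DESeq2, which passed 5.67% of all genes, 2 of the 9 passed, Tnfaip3 (adjusted p = 0.0059) besides Nfkbia (0.0035).

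In KO-RA against WT-RA retinas 0 of 9 genes passed, against 0.00522% of all genes, and 0 in DESeq2, against 5.24%, which gave Map3k8 and Birc3 no adjusted p. At an unadjusted p under 0.05 were 3, against 12.7% of all genes. These 3 were Rela (log2 difference -0.47, SE 0.18, adjusted p = 0.333), Map3k8 (-0.88, SE 0.30, adjusted p = 0.295) and Birc3 (0.85, SE 0.30, adjusted p = 0.298). For the interaction 0 of 9 passed in edgeR, against 0.00522% of all genes, and 3 were at an unadjusted p under 0.05, against 10.6%. In DESeq2, which passed 2.88% of all genes, these 3 passed, namely Nfkbia, Tnfaip3 (-0.47, SE 0.14, adjusted p = 0.285 in edgeR and 0.0654 in DESeq2) and Birc3 (-1.55, SE 0.42, adjusted p = 0.237 in edgeR and 0.0951 in DESeq2). The passing of Birc3 and Nfkb2 in WT and not in GSDMD-KO retinas is therefore not, in edgeR, a tested difference between the genotypes. For Nfkb2 the interaction was -0.45 (SE 0.34, adjusted p = 0.668).

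**Figure D3:**
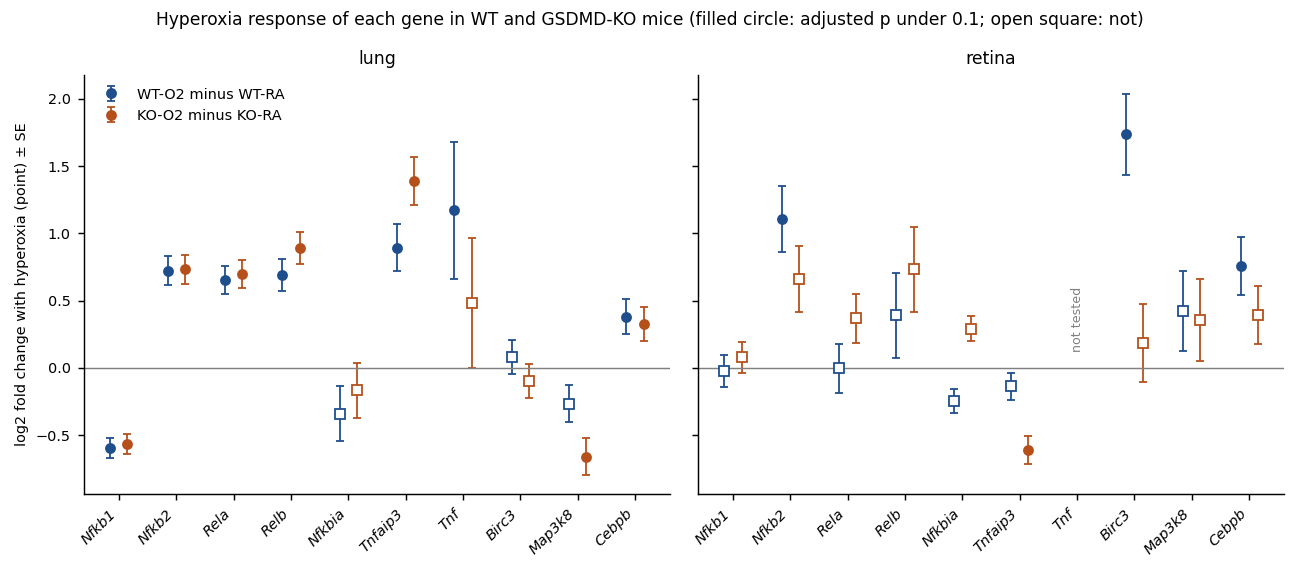
Log2 fold change with hyperoxia of each gene in lung (left) and retina (right), in WT (blue) and GSDMD-KO mice (orange), with the SE from edgeR as error bar. Filled circles had an adjusted p under 0.1 and open squares did not, and Tnf was not tested in the retina. In the lung the genotypes lie close together for Nfkb1, Nfkb2 and Rela, and on opposite sides of 0 for Birc3. In the retina they lie on opposite sides of 0 for Nfkbia, Nfkb1 and Rela. The WT points of Nfkb1 and Rela there are near 0.

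Summed levels of endothelial and microglial markers were higher in oxygen-exposed retinas, where 5.16% of all genes passed in WT and 7.82% in GSDMD-KO. Of 8 endothelial markers 7 rose in WT and 6 in GSDMD-KO, and their sum was 105 to 152 CPM in room air and 205 to 281 in oxygen. Of 10 microglial markers 4 rose in WT and 5 in GSDMD-KO, and their sum was 58.8 to 79.9 CPM in room air and 120 to 170 in oxygen. Of 10 macrophage and monocyte markers 2 rose in WT and 1 in GSDMD-KO, with a sum of 15.6 to 29.7 CPM in room air and 35.9 to 62.2 in oxygen. Of 5 tested erythroid markers 4 were lower in KO-O2 than in WT-O2. None of these genes was at 0 in every retina. The part of these markers in the rises of Birc3, Nfkb2 and Cebpb was not tested.

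Of the 113 other pathway genes 101 were tested in the retina. In WT 20 passed, 19 higher and 1 lower (19.8%, against 5.16% of all genes), with a median log2 change of 0.19, and in GSDMD-KO 13 passed, 10 higher and 3 lower (12.9%, against 7.82% of all genes), with a median of 0.21. Bcl3 went from 1.63 to 17.4 CPM in WT (log2 difference 3.42, SE 0.61, adjusted p = 0.0173) and from 1.04 to 5.58 in GSDMD-KO (2.42, adjusted p = 0.051), and it was the only 1 of 7 other Rel and IkB family genes to pass. Without the 3 lens-rich retinas 0 of the 7 passed in either genotype, and without KO-O2 replicate 2 this was 0 in GSDMD-KO. Rel and Nfkbib had log2 differences of 0.42 and -0.17 in WT. Cebpd, a partner of Cebpb, went from 6.65 to 31.1 CPM in WT (2.23, SE 0.34, adjusted p = 0.00753) and from 5.50 to 14 in GSDMD-KO (1.35, adjusted p = 0.0495), where the call was lost with a term for sex and without the lens-rich retinas. None of 11 kinases and their regulators passed in edgeR in either genotype, with Tank at -0.15, Tab3 at 0.22 and Ikbkg at 0.19 in WT.

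Of 22 receptors and adaptors 6 rose in WT and 3 in GSDMD-KO. Tnfrsf12a went from 8.58 to 23.6 CPM in WT (log2 difference 1.46, SE 0.28, adjusted p = 0.0242), Ltbr, the lymphotoxin-beta receptor of the noncanonical arm, from 11.1 to 22.4 (1.02, adjusted p = 0.0802) and Il1r1 from 2.54 to 5.04 (0.99, adjusted p = 0.0818). Of 24 tested textbook targets 8 rose in WT and 5 in GSDMD-KO, with differences in WT for Pdgfb (1.203, adjusted p = 0.015), Ier3 (0.55, adjusted p = 0.0358) and Plau (2.17, adjusted p = 0.042). These counts depended on the libraries: in WT the receptors fell to 0 without the library labelled WT-RA replicate 2 or without the 3 lens-rich retinas, and the targets to 2 without the lens-rich retinas and 1 with a term for sex. In GSDMD-KO the receptors fell to 0 without KO-O2 replicate 2 and 1 without the lens-rich retinas, and the targets to 2 without KO-O2 replicate 2 and 3 with a term for sex. Of the 13 other inhibitors and regulators of the pathway, not all of them inhibitors, Tnip2 rose (0.87, adjusted p = 0.0376) and Sharpin fell (-0.37, adjusted p = 0.0835) in WT. Zc3h12a had a difference of 0.71 (adjusted p = 0.275). Birc5, the mitotic survivin, and Dusp2, a MAP kinase phosphatase, rose in WT (1.82, adjusted p = 0.0416, and 1.86, adjusted p = 0.0575). With a term for sex the calls of Tnip2, Sharpin, Birc5 and Dusp2 were lost, and those of Birc5 and Dusp2 also without the lens-rich retinas. None of 7 tested TNF-superfamily and interleukin-1 ligands passed, with Tnfsf10 at 1.36 (adjusted p = 0.117). Of the 101 genes Myd88 alone passed in the comparison of KO-O2 with WT-O2, a share below the 1.27% of all genes, at 8.41 against 13.8 CPM (-0.72, SE 0.12, adjusted p = 0.0395).

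Ratios of 2 genes within a library do not depend on its scaling, and they were chosen after the levels were seen and given no test. The ratio of Nfkb2 to Nfkb1 counts was 0.272, 0.281 and 0.304 in WT-RA lungs and 0.604, 0.765 and 0.774 in WT-O2 lungs, and 0.267, 0.273 and 0.249 in KO-RA lungs and 0.715, 0.647 and 0.573 in KO-O2 lungs. WT retinas had ratios of 0.096, 0.149 and 0.154 after room air and 0.285, 0.328 and 0.264 after oxygen. GSDMD-KO retinas had ratios of 0.131, 0.124 and 0.123 after room air and 0.192, 0.193 and 0.183 after oxygen. In each tissue and genotype the oxygen-exposed libraries had the higher ratios without overlap. In the lung this came with a lower Nfkb1 and a higher Nfkb2, and in the retina Nfkb1 was nearly level. The ratio of Relb to Rela was 0.182 ± 0.011 in WT-RA and 0.187 ± 0.028 in WT-O2 lungs (SD, n = 3). In GSDMD-KO it was higher in oxygen without overlap, at 0.149, 0.148 and 0.145 in KO-RA and 0.158, 0.165 and 0.185 in KO-O2 lungs, and at 0.0571, 0.0638 and 0.0637 in KO-RA and 0.0819, 0.0726 and 0.0861 in KO-O2 retinas. WT retinas overlapped (0.066 ± 0.0214 and 0.0847 ± 0.0168). The ratio of Tnfaip3 to Nfkbia averaged 0.192 in WT-RA and 0.45 in WT-O2 lungs, and 0.161 in KO-RA and 0.466 in KO-O2 lungs. In WT retinas it averaged 2.35 after room air and 2.54 after oxygen, and in GSDMD-KO retinas 2.7 after room air and 1.45 after oxygen. These are ratios of counts and not of molecules, since the transcripts differ in length.

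**Figure D4:**
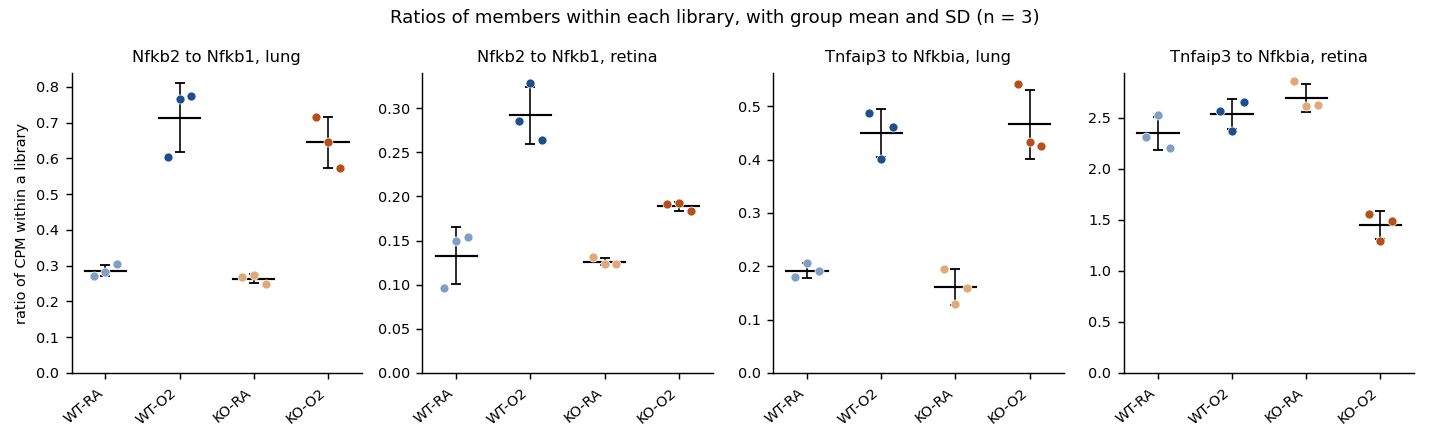
Ratio of Nfkb2 to Nfkb1 and of Tnfaip3 to Nfkbia counts in each library (vertical axes, from 0, no unit), by group in lung and retina. Points are mice, with the group mean and SD (n = 3). The ratio of Nfkb2 to Nfkb1 is higher in oxygen in all 4 pairs of groups, and that of Tnfaip3 to Nfkbia is higher in oxygen in the lung and lowest in KO-O2 in the retina.

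The non-member gene whose log2 CPM followed each gene most closely over the 12 libraries of a tissue was named by the highest Pearson correlation among genes averaging 1 CPM or more, as a description. In the lung these were Neto2 for Nfkb1 (r = 0.992), Sqstm1 for Nfkb2 (0.987), Mapkapk2 for Rela (0.99), Prkcd for Relb (0.99), Eloa for Tnfaip3 (0.987), Jund for Cebpb (0.955), Gm15320 for Map3k8 (0.94), Tex26 for Tnf (0.892), Tagap for Nfkbia (0.882) and Scd1 for Birc3 (0.84). In the retina they were Chst3 for Tnfaip3 (0.955), Stat3 for Cebpb (0.948), Jak3 for Nfkb2 (0.937), Adcy4 for Birc3 (0.925), Rbm22 for Rela (0.925), Lrfn2 for Map3k8 (0.906), Pld2 for Relb (0.904), Cyp2d22 for Nfkbia (0.892) and Tha1 for Nfkb1 (0.866). Each correlation is the highest of 14658 genes in the lung or 15429 in the retina and spans the group differences, so high values arise readily. The 2 tissues gave no gene in common.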

How the data were processed

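The authors assigned reads to mouse transcripts with kallisto, summed them per gene with tximport, and deposited these expected counts as 1 table for each tissue, with no scaling to the size of the library. FastQC and the build mm10 are named in the submitters' processing notes, while the study's methods name GRCm39, so the build behind the counts is uncertain. Lung values above 0 were within 0.01 of a whole number in 55.8% of cases and retina values in 2.20%. The 2 tables may have been made with different settings, so tests were made within a tissue only. Genes received symbols by Ensembl identifier (35816 of 36109 in the lung, 35968 of 36595 in the retina), and positions come from a GRCm38 annotation and not from the files. Samples were grouped by the genotype and treatment on their labels.

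Counts were rounded and tested in R 4.3.3 with edgeR 4.0.16: TMM, filterByExpr by group, 1 fit of all 12 libraries of a tissue, robust quasi-likelihood F-test, and Benjamini-Hochberg adjustment over 16819 lung genes and 19173 retina genes. A gene passed at an adjusted p under 0.1, and a fold change of 2 with p under 0.05 was the further threshold. SE is the log2 fold change (without its sign) over root F. The fit was tested on simulated data, and no result of that test is used here. Depth is the sum of a library's counts. For genes above a few CPM the spread among the 3 mice of a group, more than counting error, sets the precision. That the mice were separate animals comes from their labels.

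The genes named are the 10 members in every comparison, Gsdmd, at most 3 genes of each of 8 pathway lists with the smallest p for hyperoxia in WT in each tissue, and for each member the gene of most similar pattern (log2 of CPM plus 0.5). 1 gene of these lists is not reported here. Tnfrsf1b and Myd88 were named after their values were seen, because few genes passed there. The members, lists and tests were chosen with earlier results of these data known, so none of them is independent support. Alternatives were RLE factors, DESeq2 1.42.0, no or a stricter filter, unrounded counts, 2 groups only, no robust fit, a term for sex, a fold change of 1.5, each mouse left out, and, chosen after seeing the data, leaving out the 3 lens-rich retinas. Levels per kilobase were not computed, since the transcript lengths behind the counts are not given in the sources used here.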

Additional observations from a re-analysis of the deposited data

Results flagged for a closer look

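Nfkbia in the retina was singled out because every oxygen-exposed WT retina lay below every WT-RA retina while every KO-O2 retina lay above every KO-RA retina. Groups did not overlap with hyperoxia for 24.0% of all retina genes tested in WT and 26.2% in GSDMD-KO. The difference between the 2 hyperoxia effects was 0.5371 on the log2 scale (SE 0.13, adjusted p = 0.213 in edgeR and 0.0126 in DESeq2). Without KO-O2 replicate 1 the adjusted p was 0.0683, and it was 0.201 to 0.431 under the other edgeR alternatives.

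Tnfaip3 in GSDMD-KO mice was singled out because all oxygen-exposed lungs were above, and all oxygen-exposed retinas below, the room-air samples of their tissue. In GSDMD-KO the groups did not overlap for 52.4% of all lung genes tested and 26.2% of retina genes. The difference between the lung and retina effects was 2.0016 on the log2 scale. It was not tested, since the tissues were counted separately and differ in oxygen level, age and time since exposure.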

How the results depend on the processing

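In the lung the changes of Nfkb1, Nfkb2, Rela, Relb and Tnfaip3 in both genotypes and of Map3k8 in GSDMD-KO kept their direction and stayed past the adjusted p of 0.1 under all 20 alternatives run, as did the fall of Tnfaip3 in GSDMD-KO retinas under 21. With each mouse left out, 6 to 8 genes passed in WT lungs and 6 to 7 in GSDMD-KO lungs. The count above a fold change of 2 in WT lungs, 1, was 0 with 2 groups only and with no filter, 6 at a fold change of 1.5, and 0 to 1 with a mouse left out, and in GSDMD-KO lungs it was 5 at a fold change of 1.5. In KO-RA against WT-RA lungs DESeq2 gave 1 gene instead of 0, and leaving out a mouse gave 0 to 1. In WT retinas the 3 genes past the test became 1 with 2 groups only, with the sex term and without the lens-rich retinas, and 1 to 3 with a mouse left out, and the 2 above a fold change of 2 became 1 in those settings and 1 to 2. In GSDMD-KO retinas the count of 1 became 2 in DESeq2 and under the stricter filter and 1 to 3 with a mouse left out, and the count above the fold threshold went from 0 to 1 at a fold change of 1.5. In KO-O2 against WT-O2 retinas the count of 1 became 0 with 2 groups only, with no filter, with the sex term and without the lens-rich retinas, 2 in DESeq2, and 0 to 1 with a mouse left out. For the retinal interaction DESeq2 gave 3 genes instead of 0, and leaving out a mouse gave 0 to 1. Values that changed sign had not passed in any setting: Birc3 in WT lungs was -0.0552 without WT-RA replicate 3 (leaving out a mouse gave -0.0552 to 0.2298). Nfkb1 in WT retinas was 0.0485 without WT-O2 replicate 1 (leaving out a mouse gave -0.0859 to 0.0485) and 0.0174 without the lens-rich retinas, and in GSDMD-KO retinas -0.0101 with the sex term, -0.0247 without KO-RA replicate 3 (range -0.0247 to 0.1596) and -0.0212 without the lens-rich retinas. Rela in WT retinas was 0.0097 with 2 groups only, 0.0925 with the sex term, 0.0069 under the stricter filter, 0.0281 without the lens-rich retinas, and 0.0228, 0.09 and 0.0314 without WT-O2 replicate 1, WT-O2 replicate 3 and WT-RA replicate 3 (range -0.1202 to 0.09). Fold changes of the 10 genes were tallied for all hyperoxia tests, but for genotype and interaction only where the unadjusted p was under 0.05. Values that passed in no setting count as kept where their sign held. Of the tallied fold changes under the alternatives, 1013 kept direction and side of the threshold, 46 lost the call, 12 gained it and 13 changed sign. The cause of these changes was not tested. Levels per kilobase were not run. No paired analysis was possible because the labels carry no replicate numbers shared between groups. At 24863257 to 29093035 counts a library, Tnf in the retina was near the level of a few counts. It was not tested there, and a fall or a small change in it could not be seen at this depth.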
